A study of Mus musculus with 4 samples.

Results

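The 10 genes described here encode chaperones and regulators of the endoplasmic reticulum (ER) and its stress response: *Hspa5*, *Hsp90b1*, *Calr*, *Pdia4*, *Dnajb9*, *Sdf2l1*, *Xbp1*, *Herpud1*, *Creld2* and *Manf*. They were taken by symbol from the 24391 gene symbols of the count table, and all 10 were found and passed the filter on low counts. The RNA-seq covered primary mouse embryonic fibroblasts (MEFs), grown from E13.5 embryos and arrested in quiescence, with 2 WT and 2 *Phf2* KO libraries, to ask which genes depend on Phf2, a reader of H3K4me3 that associates with cohesin. All 4 libraries have the labelled genotype Phf2 flox/flox, ERCre/+, that is, floxed *Phf2* alleles with a CreERT2 recombinase made from the Rosa26 locus, and tamoxifen is named as a treatment for the *Phf2* KO libraries alone. The protocol, worded alike for every library, gives 7 days in Opti-MEM with 2% charcoal-treated serum and with 4-OHT, the form of tamoxifen that activates CreERT2, at 0.5 µM. The sample descriptions, however, mark the WT libraries noTamox and the *Phf2* KO libraries Tamox. Loss of Phf2, Cre activity and 4-OHT therefore cannot be told apart in these samples. Beyond that mark, the medium of the WT cells is not named separately. The labels do not name the embryos behind each library. Replicates 1 and 2 differed in sex-linked transcripts in both groups, as given further on, so they did not come from 1 and the same embryo. Whether WT and *Phf2* KO libraries of the same number share an embryo is not stated.

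Secreted and membrane proteins fold in the ER, where chaperones hold unfolded chains and enzymes join their disulfide bonds and trim their sugars. When unfolded proteins accumulate, the sensors Ire1, Perk and Atf6 start the unfolded protein response (UPR), in which Ire1 splices the *Xbp1* mRNA, Perk slows translation and favours Atf4, and Atf6 is cut to release a transcription factor. Fibroblasts secrete large amounts of collagen and fibronectin and depend on this machinery. Many UPR genes carry the ER stress response element (ERSE) in their promoters, a CCAAT box bound by NF-Y and a CCACG site bound by Atf6 or Xbp1.

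The elements found before the starts of these genes are shown first, since ERSE-dependent induction is what several of these genes are known for. The 250 bases before each start were read from RefSeq's promoters (build GRCm38.p6), which held 9 of the 10 genes and not *Manf*, and were searched on both strands for the ERSE (CCAAT, any 9 bases and CCACG), the ERSE-II (ATTGG, any 1 base and CCACG) and TGACGTGG, the core of the UPR element (UPRE). An ERSE was found in 4 of the 9, *Hspa5*, *Hsp90b1*, *Calr* and *Creld2*, against 0.113% of all 32851 promoters, and *Hsp90b1* held 2. An ERSE-II was found in *Herpud1*, against 0.0304% of promoters. Since several of these genes are known for ERSE-dependent induction, these shares describe the promoters and are no test of enrichment. Both motifs hold a CCAAT box, found in 8 of the 9 and in 33.8% of promoters, and a CCACG site, found in 7 of the 9 and in 28.3%. The exact letters TGACGTGG of the UPRE core were found in none of the 9 and in 0.563% of promoters. Near matches to the motifs were not searched. The CRE core TGACGTCA was found in 0 of the 9 and in 1.55% of promoters, and a C/EBP-ATF site (TGATG, any 1 base and AA) in *Herpud1* alone and in 3.44%. *Pdia4*, *Dnajb9*, *Sdf2l1* and *Xbp1* had neither ERSE, ERSE-II nor UPRE core in this window, and no match says only that these letters are absent from it. The elements are given 5′ to 3′ on the strand on which the motif reads, with 20 bases on each side and with the letters of the CCAAT box and of CCACG in capitals (for ERSE-II, the CCAAT box is read on the other strand as ATTGG).
Hspa5 (chr2:34772005-34772063, forward strand): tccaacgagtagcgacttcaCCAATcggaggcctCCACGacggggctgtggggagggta
Hsp90b1, distal (chr10:86705618-86705676, reverse strand): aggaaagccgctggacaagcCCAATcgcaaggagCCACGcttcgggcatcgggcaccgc
Hsp90b1, proximal (chr10:86705513-86705571, forward strand): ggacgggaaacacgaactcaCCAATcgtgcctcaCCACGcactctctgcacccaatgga
Calr (chr8:84847055-84847113, forward strand): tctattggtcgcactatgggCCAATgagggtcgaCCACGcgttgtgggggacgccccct
Creld2 (chr15:88819500-88819558, reverse strand): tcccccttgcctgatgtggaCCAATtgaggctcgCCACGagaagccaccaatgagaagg
Herpud1, ERSE-II (chr8:94386357-94386407, forward strand): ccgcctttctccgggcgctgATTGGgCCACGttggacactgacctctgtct

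The element of *Hspa5* ended 47 bases before the start and that of *Herpud1* 42 bases before it. Those of *Calr* and *Creld2* and the proximal one of *Hsp90b1* read on the strand opposite to the gene, and the distal one of *Hsp90b1* began 212 bases before the start. Of 27 other ER folding genes with a promoter in the table, *Canx*, *Dnajc3* and *Pdia6* also held an ERSE. The promoter of *Hspa5*, whose element is the closest to the start among the ERSE matches, is given whole (chr2:34771840-34772089 of GRCm38.p6, forward strand), with the ERSE in capitals.
Hspa5 promoter: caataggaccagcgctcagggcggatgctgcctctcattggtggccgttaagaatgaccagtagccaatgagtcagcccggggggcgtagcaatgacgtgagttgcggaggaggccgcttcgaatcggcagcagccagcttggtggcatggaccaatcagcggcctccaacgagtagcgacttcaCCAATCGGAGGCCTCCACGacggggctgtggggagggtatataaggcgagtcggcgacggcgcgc

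The libraries held between 21094743 and 26094268 counts. Levels are given as normalized CPM, that is, counts relative to the TMM-scaled library size. *Phf2* itself stood at 134.6 and 141.8 CPM in the WT libraries, against 70.2 and 89.8 in the *Phf2* KO libraries (replicates 1 and 2 in this order, as in what follows), so that 57.9% of the WT level was still counted across the whole gene (log2 fold change -0.79, standard error 0.14, unadjusted p = 0.00332, adjusted p = 0.999). The libraries also differed by replicate number. *Xist*, the RNA of the inactive X chromosome, had 10042 counts in WT replicate 1 and 8336 in *Phf2* KO replicate 1, but 3 in WT replicate 2 and 12 in *Phf2* KO replicate 2. The Y-linked *Ddx3y* had 6 and 10 counts in replicate 1 of WT and *Phf2* KO, and 1271 and 1295 in replicate 2. In both groups, each of 26 macrophage markers had its higher level in replicate 1, with summed levels of 4973 and 1067 CPM in WT and 5481 and 1651 CPM in *Phf2* KO MEFs. Of these markers, *Csf1r*, the receptor that the lineage depends on, was counted between 1433 and 6161 times, *Cd68* between 3203 and 13738, *Mrc1* between 1098 and 6142 and *Adgre1* (F4/80) between 427 and 2645. *Cx3cr1* was between 1 and 8 counts, and *Cd163* was at 3 or fewer in each library. The 13 fibroblast markers were all detected and summed to 76812 and 82594 CPM in WT and to 72030 and 70049 in *Phf2* KO MEFs. For this reason the ratio of *Phf2* KO to WT is given within each replicate number as well.

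At a threshold of 0.1 on the adjusted p-value, none of the 10 ER genes passed edgeR's quasi-likelihood test of *Phf2* KO against WT, and none had an unadjusted p-value under 0.05. Over all 13668 genes tested, 0.00732% were called, and 4.21% had an unadjusted p-value under 0.05 (1.54% higher and 2.67% lower in *Phf2* KO MEFs), so a count of 0 among 10 is near the background. DESeq2, limma-voom and edgeR's likelihood ratio test also called 0 of the 10, where DESeq2 called 0.0625% of genes as higher and 0.338% as lower. When edgeR's test held the replicate number as a block, 5.77% of genes were called as higher and 5.20% as lower and 19.6% had an unadjusted p-value under 0.05, and the 10 ER genes gave 0 in each of these counts. The log2 fold changes ran from -0.09 for *Hspa5* to 0.19 for *Dnajb9*, with 7 genes above 0 and 3 below it, and the sign turned for 5 of the 10 when 1 library was left out. Their median was 0.04, against 0.01 over all genes tested. In size, the median change was 0.084 log2 units, against 0.122 over all genes tested and 0.091 over the 7522 genes with mean counts of at least 400, a limit set after seeing that it holds all 10 genes. Since these are bulk samples, fewer cells of a type and less RNA per cell cannot be told apart.

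The 95% intervals of the log2 fold change lay within 1 log2 unit of 0 for 10 of the 10 genes, against 75.8% of all genes tested, and within 0.5 log2 units for 8 of the 10, against 43.0%. Among genes with mean counts of at least 400, 70.0% had an interval within 0.5 log2 units. The exceptions were *Dnajb9* and *Sdf2l1*, the members with the fewest counts. The smallest standard error was 0.075, for *Herpud1*, and the largest 0.30, for *Sdf2l1*.

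**Figure D1:**
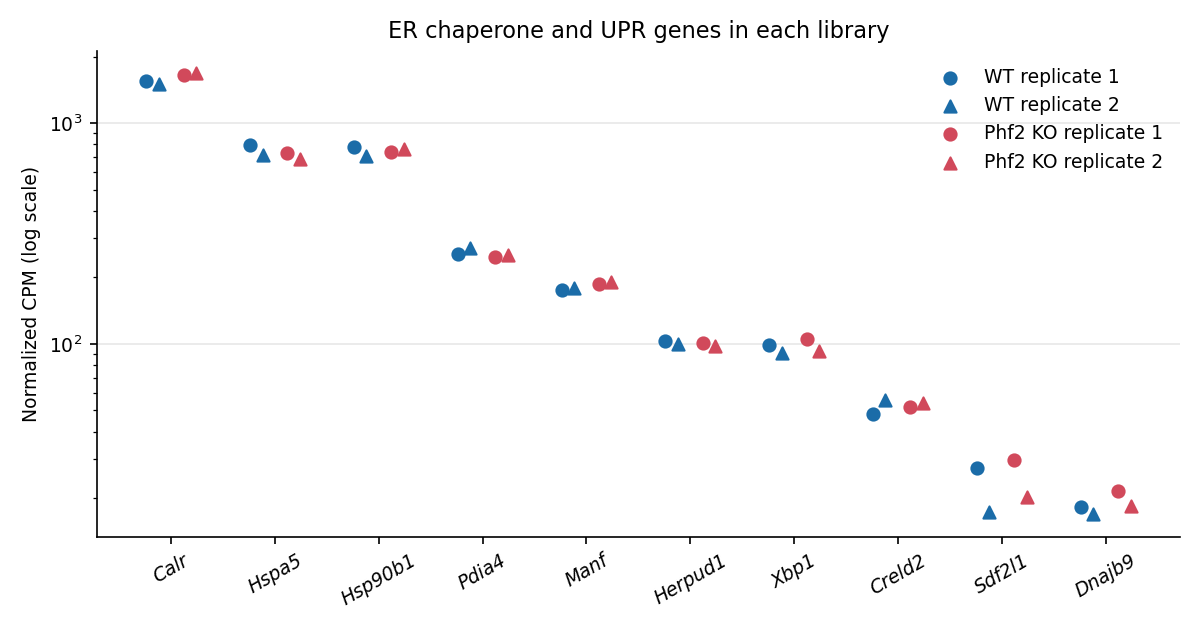
Normalized CPM (log axis) of the 10 genes in each library, ordered by the mean in WT. Circles are replicate 1 and triangles replicate 2, WT in blue and Phf2 KO in red. The points of a gene lie close together from Calr, at 1509 to 1688 CPM, to Dnajb9, at 16.9 to 21.6 CPM, and those of Sdf2l1 are split by replicate number, with 27.3 and 29.7 CPM in replicate 1 and 17.3 and 20.3 in replicate 2.

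The 10 genes differed widely in abundance. Per kb of their longest coding transcript, the mean level in WT was highest for *Calr*, at 700.0 ± 12.9 (SD, n = 2) CPM per kb, and lowest for *Dnajb9*, at 9.41 ± 0.506 (SD, n = 2) CPM per kb, a ratio of 74.4. In between, and in falling order, stood *Hspa5* (289.7 ± 22.1), *Hsp90b1* (263.6 ± 18.8), *Pdia4* (106.1 ± 4.38), *Manf* (78.6 ± 0.943), *Herpud1* (51.7 ± 1.16), *Xbp1* (44.7 ± 2.65), *Creld2* (38.0 ± 3.90) and *Sdf2l1* (20.1 ± 6.41), each in CPM per kb with the SD of 2 WT replicates. Over the 4 libraries, the ranges of neighbours in this order were separate except for *Hspa5* and *Hsp90b1*, which overlapped. Together the 10 genes took 0.390% (95% Wilson interval 0.388 to 0.393) and 0.364% (0.362 to 0.366) of all counts in the WT libraries. In the *Phf2* KO libraries they took 0.380% (0.377 to 0.382) and 0.390% (0.387 to 0.392). These intervals cover counting error only. Both *Phf2* KO shares fell between the shares of the WT replicates. *Hspa5*, *Hsp90b1* and *Calr* made up between 80.1% and 81.2% of these counts.

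*Hspa5* (BiP; chromosome 2 of mm9, 34627490 to 34632051, forward strand) encodes the Hsp70 chaperone of the ER lumen, which binds unfolded chains and keeps the UPR sensors inactive. Its level was 797.7 and 716.1 CPM in WT replicates 1 and 2, against 734.8 and 685.3 in the *Phf2* KO replicates. The groups overlapped, since *Phf2* KO replicate 1 was above WT replicate 2. The log2 fold change was -0.09 (standard error 0.11, 95% interval -0.38 to 0.19, unadjusted p = 0.434), and the log2 ratio of *Phf2* KO to WT was -0.12 in replicate 1 and -0.064 in replicate 2. This interval corresponds to between 0.770 and 1.14 times the WT level.

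*Hsp90b1* (Grp94; chromosome 10 of mm9, 86152954 to 86168254, reverse strand), the Hsp90 chaperone of the ER, was at 782.2 and 707.0 CPM in WT and at 742.6 and 762.2 in *Phf2* KO MEFs. Both *Phf2* KO values fell between the WT values. Its log2 fold change of 0.01 (standard error 0.10, interval -0.25 to 0.28) was the closest to 0 of the 10, and the ratio changed sign between the replicates, -0.08 in replicate 1 and 0.11 in replicate 2. In the annotation of mm9 this gene overlaps a lincRNA on the opposite strand and the transcripts Gm15344 and AC152453.1 on its own strand.

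*Calr* (chromosome 8 of mm9, 87365749 to 87370833, reverse strand) encodes calreticulin, a lectin chaperone that binds monoglucosylated glycoproteins and stores calcium. Its counts were 37328 and 39151 in WT, against 34137 and 40571 in *Phf2* KO MEFs, or 1549 and 1509 against 1648 and 1688 CPM. Both *Phf2* KO libraries were above both WT libraries, by a log2 fold change of 0.13 (standard error 0.098, interval -0.13 to 0.38, unadjusted p = 0.261) that did not pass the test. *Pdia4* (Erp72; chromosome 6 of mm9, 47746141 to 47763511, reverse strand), a protein disulfide isomerase, had lower values in *Phf2* KO MEFs, at 255.4 and 270.8 CPM in WT, against 246.4 and 252.9 in *Phf2* KO MEFs. The fitted log2 difference was -0.08 (standard error 0.086, unadjusted p = 0.422) and did not pass the test, and the groups were separate by 2.53 CPM.

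*Dnajb9* and *Sdf2l1*, partners of Hspa5, were the members with the lowest counts. *Dnajb9* (Erdj4; chromosome 12 of mm9, 45306884 to 45311055, reverse strand) encodes a J-domain protein that helps Hspa5 hold Ire1 inactive. Its counts were 439 and 438 in WT, against 448 and 444 in *Phf2* KO MEFs, which at these library sizes was 18.2 and 16.9 against 21.6 and 18.5 CPM. The groups were separate by 0.256 CPM, and the log2 fold change of 0.19 was the highest of the 10 (standard error 0.13, interval -0.16 to 0.55, unadjusted p = 0.217). *Sdf2l1* (chromosome 16 of mm9, 17130231 to 17132476, reverse strand), which encodes a partner of J-domain proteins that keeps substrates soluble, was at 27.3 and 17.3 CPM in WT, against 29.7 and 20.3 in *Phf2* KO MEFs. Here the libraries split by replicate number and not by group. The log2 fold change of 0.16 had the widest interval of the 10, -0.63 to 0.96, or between 0.646 and 1.94 times the WT level, and was smaller than its standard error of 0.30.

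The remaining members belong to the regulatory and degradative side of the UPR and to its secreted targets. *Xbp1* (chromosome 11 of mm9, 5420662 to 5425896, forward strand), the transcription factor made from the mRNA that Ire1 splices, was at 99.2 and 91.2 CPM in WT, against 104.7 and 92.7 in *Phf2* KO MEFs. The groups overlapped and the log2 fold change was 0.05 (standard error 0.10). Counts per gene do not part spliced from unspliced *Xbp1* mRNA, so the activity of Ire1 was not measured. *Herpud1* (chromosome 8 of mm9, 96910338 to 96919277, forward strand), which organises the ubiquitin ligase complex of ER-associated degradation, was at 102.6 and 99.4 CPM in WT and at 100.5 and 97.6 in *Phf2* KO MEFs. Over the 4 libraries it varied least of the 10, and its log2 fold change was -0.03 (standard error 0.075, interval -0.23 to 0.17).

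*Creld2* (chromosome 15 of mm9, 88650076 to 88657111, forward strand), a stress-induced secreted ER protein, was at 48.1 and 55.6 CPM in WT, with the *Phf2* KO values of 51.7 and 53.8 between them. *Manf* (chromosome 9 of mm9, 106740643 to 106794310, reverse strand) encodes a small secreted protein that binds Hspa5 and is released under ER stress. Its replicates lay closest together, at 175.2 and 178.2 CPM in WT, against 187.5 and 190.0 in *Phf2* KO MEFs, so the groups were separate, by a log2 fold change of 0.10 (standard error 0.079, interval -0.11 to 0.30, unadjusted p = 0.284). The ratio was 0.10 log2 units in replicate 1 and 0.09 in replicate 2. The annotated *Manf* locus overlaps *Rbm15b* on its own strand and *Vprbp* on the other, and that of *Pdia4* overlaps the microRNA *Mir704* on its own strand. How far these overlaps and those of *Hsp90b1* bear on the levels was not tested.

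Of the 10 genes, *Calr*, *Dnajb9* and *Manf* had both *Phf2* KO libraries above both WT libraries, against 15.5% of all genes tested, and *Pdia4* had both below, against 18.0%. Within replicate numbers, 5 genes had *Phf2* KO above WT in both, against 32.6% of genes tested, and 3 had it below in both, against 30.2%. *Hsp90b1* and *Creld2* changed sign between the replicates. These shares lie near the background over all genes.

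**Figure D2:**
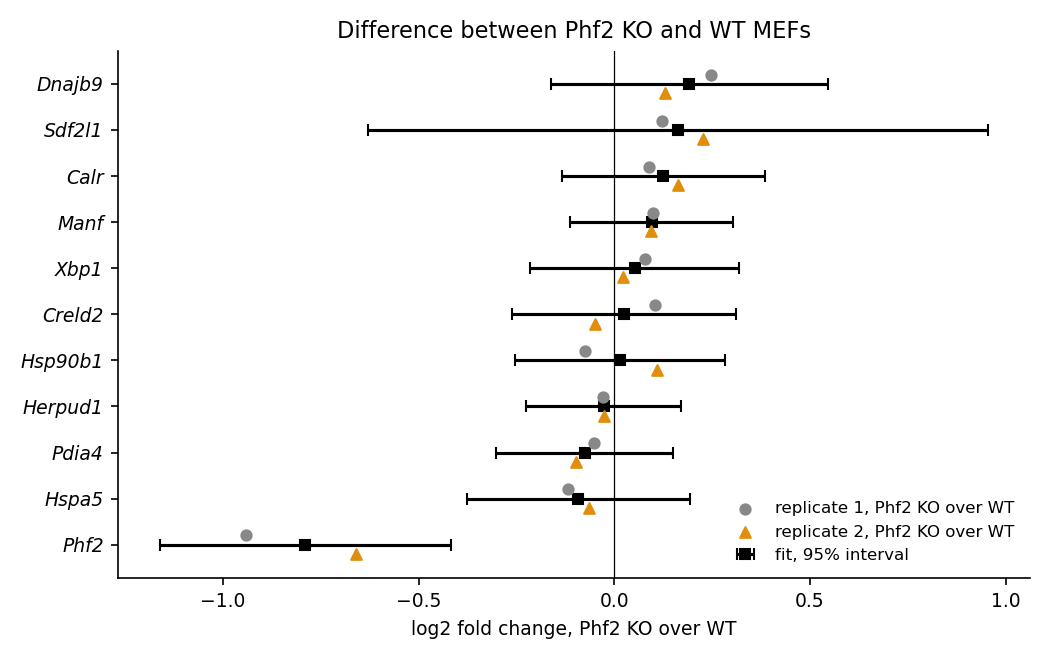
Log2 fold change of Phf2 KO over WT for the 10 genes and Phf2. Squares are the edgeR fit with its 95% interval, circles the ratio within replicate 1 and triangles that within replicate 2. All 10 intervals of the ER genes hold 0, and the interval of Phf2 does not.

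In WT, the difference between replicates 1 and 2 was larger than the fitted difference between groups for 7 of the 10 genes. The share of all genes tested was not counted for this. A difference between 2 single libraries also varies more than one between means of 2 libraries, so the count is a description only. *Sdf2l1* was higher in replicate 1 by 0.66 log2 units in WT and by 0.55 in *Phf2* KO MEFs, *Dnajb9* by 0.11 and 0.23, *Xbp1* by 0.12 and 0.18, and *Hspa5* by 0.16 and 0.10. *Creld2*, *Pdia4* and *Manf* were lower in replicate 1 in both groups, with a log2 ratio of -0.21 for *Creld2* in WT. In all, 5 of the 10 were higher in replicate 1 in both groups, against 32.7% of genes tested, and 3 were lower, against 35.9%. The macrophage markers were higher in replicate 1 as *Sdf2l1* was, with a median difference between replicates 1 and 2 of 2.32 log2 units in WT and 1.77 in *Phf2* KO MEFs, and sex went with the replicate number too. Their part in the level of *Sdf2l1* was not tested.

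**Figure D3:**
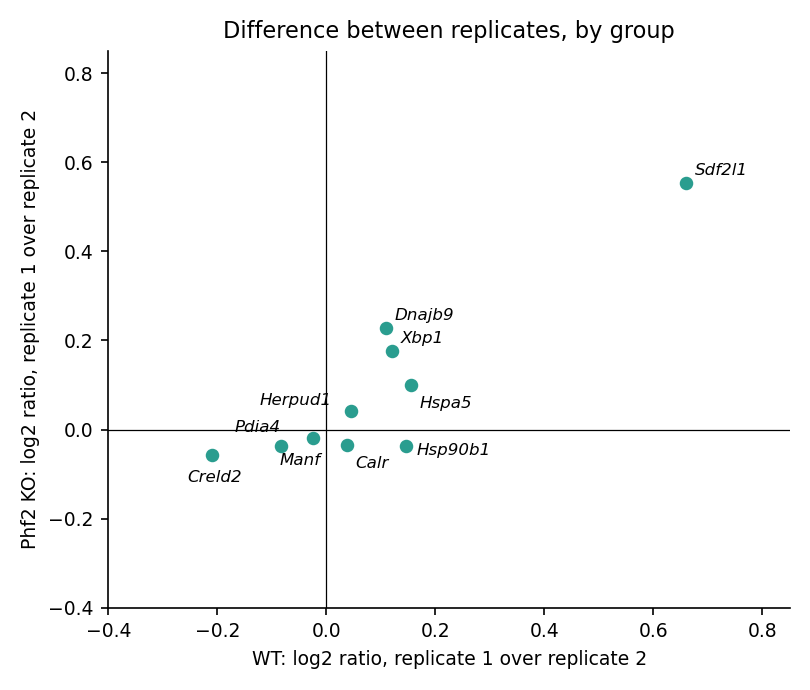
Log2 ratio of replicate 1 over replicate 2 in WT (horizontal axis) and in Phf2 KO (vertical axis) for each of the 10 genes, as points. Sdf2l1 lies apart at 0.66 and 0.55, and the other 9 lie within 0.23 of 0 on both axes.

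The rest of the ER folding and stress pathways was read from 7 lists. Of 35 other ER chaperones and folding enzymes, 0 were called, 0 had an unadjusted p-value under 0.05, and the median log2 fold change was -0.02 (15 above 0, 20 below), against 0.01 over all genes tested. *Hyou1*, the exchange factor of Hspa5, was at 334.7 and 347.7 CPM in WT, against 375.0 and 330.1 in *Phf2* KO MEFs (log2 fold change 0.05, standard error 0.10). *Canx*, the membrane-bound partner of calreticulin, was at 640.5 and 603.0 CPM in WT, against 589.1 and 565.2 in *Phf2* KO MEFs (-0.11, standard error 0.093). The 2 lectin chaperones thus had log2 fold changes of opposite sign, neither of which passed the test.

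Among the disulfide isomerases, *P4hb*, which also serves as a subunit of the collagen prolyl hydroxylase, had a log2 fold change of 0.09 (standard error 0.095), *Pdia6* 0.11 (0.085) and *Pdia3*, which works with calreticulin and calnexin, -0.18 (0.11). *Dnajc3*, an inhibitor of Perk and a co-chaperone of Hspa5, had -0.07 (0.094). The ends of this list were *Ppib*, a peptidyl-prolyl isomerase that acts on collagen, with 0.31 (standard error 0.15, unadjusted p = 0.103), and *Fkbp7*, another isomerase, with -0.22 (0.14). *Ppib* was at 64.2 CPM in WT replicate 1 and between 85.2 and 92.9 in the other 3 libraries.

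Of the sensors, *Ern1*, which encodes Ire1, was at 41.6 and 34.7 CPM in WT, against 40.5 and 34.6 in *Phf2* KO MEFs, a split by replicate number. *Eif2ak3*, which encodes Perk, was at 54.2 and 51.4 CPM against 49.7 and 49.9, and *Atf6* at 120.7 and 96.0 against 112.7 and 82.6. *Atf6* thus also split by replicate number, with both groups higher in replicate 1. The log2 fold changes of *Ern1*, *Eif2ak3* and *Atf6* were -0.02 (standard error 0.14), -0.08 (0.085) and -0.15 (0.20). Over the 14 sensors and regulators, 0 were called and the median was -0.003. An unadjusted p-value under 0.05 was found for 1 of them, against 4.21% of all genes tested. That gene was *Creb3l1* (OASIS), an ER-anchored transcription factor of the Atf6 kind that activates collagen genes. Its level was 164.2 and 155.6 CPM in WT, against 120.5 and 105.7 in *Phf2* KO MEFs, so both *Phf2* KO libraries were lower. The log2 fold change was -0.50 (standard error 0.10, interval -0.77 to -0.23, unadjusted p = 0.00544, adjusted p = 0.999 by edgeR's quasi-likelihood test), with -0.45 in replicate 1 and -0.56 in replicate 2. With the replicate block, edgeR's test called it (adjusted p = 1.97e-07). DESeq2 called *Creb3l1* (adjusted p = 0.0667 from DESeq2's Wald test), at 0.338% of genes called as lower. *Traf2*, which binds active Ire1, was at the upper end of this list with 0.16 (standard error 0.094).

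In the Perk branch, *Atf4*, the factor whose translation is favoured under stress, was at 425.1 and 412.3 CPM in WT, against 414.1 and 394.6 in *Phf2* KO MEFs (log2 fold change -0.05, standard error 0.088). *Ddit3* (Chop), an Atf4 target linked to cell death, was at 253.7 and 275.9 CPM against 275.2 and 266.4 (0.03, standard error 0.091). Over the 14 genes of this branch and the integrated stress response, 0 were called and the median was -0.03. At an unadjusted p-value under 0.05 there was 1, against 4.21% of all genes tested. This was *Ddit4*, an inhibitor of mTORC1 that many stresses induce. Its level was 43.5 and 46.9 CPM in WT, against 56.6 and 56.0 in *Phf2* KO MEFs (0.32, standard error 0.090, unadjusted p = 0.0193, adjusted p = 0.999, and 0.00768 from edgeR with the replicate block). *Vldlr*, a lipoprotein receptor, was at the lower end with -0.33 (0.17). Of the 14 genes, 6 were above 0 and 8 below.

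Among the later steps of the secretory pathway, 0 of 27 tested genes of ER-associated degradation, 0 of 35 genes of translocation, signal peptide cleavage and N-glycosylation and 0 of 23 tested genes of ER to Golgi transport were called, and 0 of each had an unadjusted p-value under 0.05. Their median log2 fold changes were 0.01, -0.02 and -0.04. The ends of the first list were *Ube2j2* (0.25, standard error 0.27), a ubiquitin-conjugating enzyme of the ER membrane, and *Erlec1* (-0.35, 0.18), a lectin that recognises misfolded glycoproteins. Those of the second were *Ost4* (0.34, 0.21) and *Stt3a* (-0.48, 0.20), both subunits of the oligosaccharyltransferase, so genes of one complex lay at opposite ends. *Stt3a* was counted 3267 times in WT replicate 1, and the ratio of *Phf2* KO to WT was -0.84 in replicate 1 and -0.09 in replicate 2. *Ost4* was at 66.5 CPM in WT replicate 1, against 98.85 in WT replicate 2 and 99.7 and 110.2 in *Phf2* KO MEFs. Its ratio was 0.58 in replicate 1 and 0.16 in replicate 2. WT replicate 1 was thus the highest library for *Stt3a* and the lowest for *Ost4*. In the third list, *Tmed2*, a cargo receptor, had -0.99 (standard error 0.49) and *Preb*, which loads Sar1, 0.11 (0.083). *Tmed2* was highest in WT replicate 1, with 239 counts against 103, 63 and 94 in WT replicate 2 and *Phf2* KO replicates 1 and 2.

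For comparison with another folding compartment, the 17 cytosolic heat shock genes had a median log2 fold change of 0.01, and 0 were called. At an unadjusted p-value under 0.05, 2 were lower, against 2.67% of all genes tested. One was *Hspa1b*, the stress-induced cytosolic Hsp70, with counts of 170 and 259 in WT, against 103 and 88 in *Phf2* KO MEFs (-0.98, standard error 0.27, unadjusted p = 0.018, adjusted p = 0.999), and shares most of its sequence with *Hspa1a*, so reads may be split between them. *Hspa1a*, which was the other and is named after its values were seen, had -0.74 (0.23). *Hspa4l*, an Hsp110 cochaperone, was at the upper end with 0.35 (0.14). DESeq2, limma-voom and edgeR's likelihood ratio test called no gene of the 7 lists other than *Creb3l1* in DESeq2. Over all genes, the fit with the replicate block called 5.77% as higher and 5.20% as lower. The 7 lists, in the order given, held 35, 14, 14, 27, 35, 23 and 17 tested genes. Among them this fit changed the call for 14 genes, in both directions. Of those with values above, they were *Ppib*, *Ddit4*, *Ost4* and *Hspa4l* as higher and *Creb3l1*, *Vldlr*, *Erlec1*, *Stt3a*, *Tmed2*, *Hspa1a* and *Hspa1b* as lower. The log2 ratio of *Phf2* KO to WT was -0.58 in replicate 1 and -0.12 in replicate 2 for *Vldlr*, and -0.56 and -0.11 for *Erlec1*. For *Creb3l1* it was -0.45 and -0.56.

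**Figure D4:**
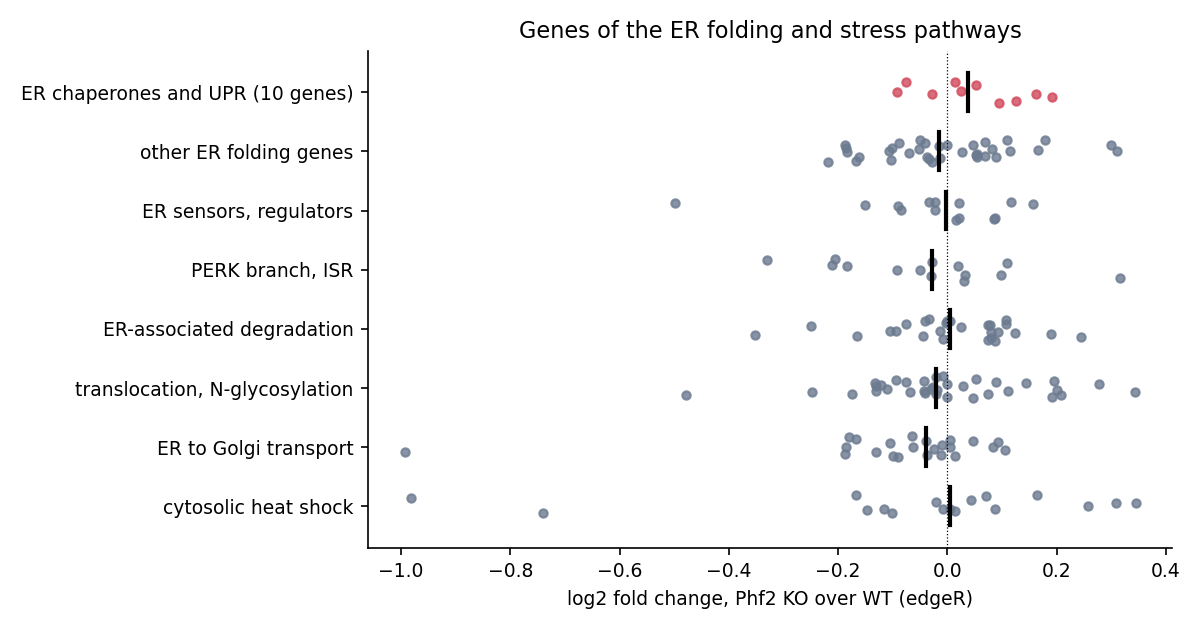
Log2 fold change of Phf2 KO over WT from edgeR (horizontal axis) for each tested gene of the 10 ER genes (red) and of the 7 pathway lists (grey), with a black bar at each list's median. The medians lie between -0.04 and 0.04, and the genes furthest out are Tmed2, Hspa1b, Hspa1a, Creb3l1 and Stt3a.

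The mean pattern of the 10 genes, each centred on its own mean over the 4 libraries, was 0.02 and -0.07 log2 units in WT, against 0.07 and -0.02 in *Phf2* KO MEFs. Of 6641 genes outside the lists with mean counts of at least 500, those whose pattern was most like it over the 4 libraries were *Psmd12*, *Bhlhe41*, *Speg*, *Ftl1* and *Mylip*, with Pearson's r between 0.9993 and 0.9997. These values rest on 4 libraries and are given as a description only. The size of the pattern differed, since *Bhlhe41* spanned 1.04 log2 units over the libraries and *Psmd12* 0.26. Among the 10 genes, *Sdf2l1* weighed most in the mean pattern. Its centred values reached from -0.42 log2 units (WT replicate 2) up to 0.36 (*Phf2* KO replicate 1). *Pdia4* and *Creld2* were instead highest in WT replicate 2, where the mean was lowest. A mean without *Sdf2l1* was not computed, so the likeness cannot be ascribed to the 10 genes as a set.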

How the data were processed

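RNA-seq was read from the table of counts per gene that the authors deposited, whole numbers without normalization. According to the methods of the study, single reads of 50 nt were trimmed with Trim Galore, freed of ribosomal RNA with bowtie2, aligned to MGSCv37 (mm9) with STAR as reverse stranded and counted with featureCounts. Versions and annotation release are not given in the sources used here. A deposited table of the authors' DESeq2 comparison (fold changes and p-values) was not used.

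The model was fitted with edgeR 4.0.16 under R 4.3.3. Of all genes, filterByExpr kept 13668, and TMM factors scaled the libraries. The effect of group (*Phf2* KO against WT) was tested by glmQLFit followed by glmQLFTest. The p-values were adjusted by Benjamini-Hochberg over all genes kept, and the threshold was 0.1. Standard errors were derived from the F statistic and 95% intervals from its degrees of freedom. Alternatives were DESeq2 1.42.0, limma 3.58.1 (voom), edgeR's likelihood ratio test, other scalings (DESeq2's size factors or library size), filters and thresholds, leaving out each library, and a block for the replicate number. A count of 3, the limit of detection, was worth 0.115 to 0.142 CPM, for counting error only.

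Gene positions and transcript lengths came from GENCODE's annotation of mm9 (NCBIM37), and promoters from RefSeq on GRCm38.p6; coordinates of the builds were not mixed. With BLAST+ 2.17.0, exact matches of at least 50 bases of each member's longest coding transcript to mm9 lay in its own gene and 0 elsewhere. All list symbols were found in the table. The genes named are the members, *Phf2*, the sensors *Ern1*, *Eif2ak3* and *Atf6* with *Atf4* and *Ddit3*, and 6 chaperones like the members in role. Named too are the highest and lowest gene of each list with a mean count of at least 100, and the 5 genes most like the members' mean pattern. *Hspa1a* and the promoter matches were named after their values were seen. Lists of macrophage, fibroblast, endothelial, epithelial, muscle and neural markers were also read. The members and lists were chosen with earlier results of these data known. Figures were drawn with Matplotlib 3.10.9.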

Additional observations from a re-analysis of the deposited data

How the results depend on the processing

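Of the 10 ER genes, 0 were called in either direction under each alternative run. Under the 8 alternatives that left out no library, all 80 log2 fold changes kept their sign, and the lowest adjusted p-value was 0.365. Leaving out 1 library turned the sign of 9 of 40 values, with ranges of -0.072 to 0.10 for *Hsp90b1*, -0.15 to 0.54 for *Sdf2l1*, -0.040 to 0.14 for *Xbp1*, -0.066 to 0.0077 for *Herpud1* and -0.064 to 0.12 for *Creld2*. Without WT replicate 2, *Hsp90b1*, *Sdf2l1* and *Xbp1* were at -0.072, -0.15 and -0.023. Without *Phf2* KO replicate 1, *Sdf2l1* and *Xbp1* were at -0.14 and -0.040. Without WT replicate 1, *Creld2* was at -0.064 and *Herpud1* at 0.0077, and without *Phf2* KO replicate 2, *Hsp90b1* and *Creld2* were at -0.0061 and -0.0047.

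By the labels all 4 libraries share a genotype, and those of the same replicate number also carry consecutive numbers in their descriptions. Neither labels nor methods state a pairing. The log2 ratio of replicate 1 to 2 of each gene had a Pearson's r of 0.774 between WT and *Phf2* KO, over genes, which are not independent replicates. The replicate block raised the calls over all genes to 789 higher and 711 lower, and adjusted p-values of the ER genes were 0.365 to 0.955. This fit has 1 residual degree of freedom. In the lists it called 1 higher and 0 lower of the other ER folding genes (*Ppib*), 0 and 1 of the sensors and regulators (*Creb3l1*), 1 and 2 of the Perk branch (*Ddit4*, and *Trib3* and *Vldlr*), 0 and 1 in ER-associated degradation (*Erlec1*), 1 and 1 in translocation and N-glycosylation (*Ost4* and *Stt3a*), 0 and 1 in ER to Golgi transport (*Tmed2*), and 3 and 2 of the cytosolic heat shock genes (*Hsp90aa1*, *Hspa4l* and *Hspe1*, and *Hspa1a* and *Hspa1b*). *Creb3l1* was at -0.50 (adjusted p = 1.97e-07 from edgeR with the block).

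Without the block, edgeR called 0 of all genes as higher (211 at an unadjusted p-value under 0.05) and 1 as lower (365), *Dkk2*, named after its values were seen. DESeq2 gave 10 and 54 (205 and 273 unadjusted) and 1 lower among the sensors and regulators. The likelihood ratio test gave 3 and 38, limma-voom 0 and 0 (352 lower unadjusted), and thresholds of 0.05 and 0.01 gave 0 lower. Leaving out any 1 library gave 0 lower (157 to 378 unadjusted), with fewer samples in the fit and the lone library assumed to vary like the other group. For the other settings the cause was not tested. *Phf2* was called by DESeq2 (-0.78), the likelihood ratio test (-0.79) and the block (-0.80), and not by the other alternatives. With 2 libraries a group, sex and macrophage content went with the replicate number, and Cre activity and 4-OHT went with the group. The wide interval of *Sdf2l1* limits what can be said of it.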
